A study of Homo sapiens with 29 samples.

Results

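The comparison described here is knockdown of DAXX in HCT116 cells that received no crotonate. HCT116 is a human colorectal carcinoma line of epithelial origin. Its members are all genes with a log2 RPM of at least -2 (0.25 RPM) in 4 or more of the 16 RNA libraries, 17973 of 38148 genes in the deposited table. 1 RPM is 1 read of the gene in 1000000 reads of the library, and values are not divided by gene length. The tested cells received 35 nM siRNA against DAXX and the control cells 25 nM non-targeting siRNA, per the labels, so that target and dose of siRNA cannot be told apart. Each group has 4 libraries, and these 8 are part of 29 samples in all. The other RNA groups received the same siRNAs with 10 mM crotonate, a short-chain fatty acid, and 12 chromatin immunoprecipitation (ChIP) libraries were made with an antibody against crotonylated lysine (Kcr). The sample protocol gives 48 h for the treatment and the series text 18 h for crotonate. Each RNA sample came from 1300000 cells.

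DAXX binds the histone variant H3.3 and escorts it to chromatin. Together with the chromatin remodeller ATRX it places H3.3 at heterochromatin, telomeres and repeats, and much of the protein resides in PML nuclear bodies, where it binds SUMO-modified proteins. It is also known as a repressor that binds transcription factors and histone deacetylases, and as an adaptor of signalling from the FAS receptor to the kinase JNK.

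DAXX transcript (ENSG00000204209, chromosome 6, 33318558 to 33323016, minus strand, GRCh38) stood at 22.9, 27.4, 23.3 and 24.9 RPM in DAXX siRNA libraries 1 to 4, against 103, 105, 102 and 101 RPM in non-targeting libraries 1 to 4. Every library labelled DAXX siRNA was far below every library labelled non-targeting. The mean was 23.9% of the non-targeting level (24.6 ± 2.06 against 103 ± 1.6 RPM, SD, n = 4 each; log2 difference -2.07, SE 0.125, limma adjusted p = 1.23e-08). The neighbouring gene SMIM40, which encodes a small membrane protein and overlaps DAXX on the same strand, had 3.27, 3.92, 4.17 and 4.03 RPM in DAXX siRNA libraries and 16.6, 17.6, 17.4 and 16.3 RPM in non-targeting libraries. Its groups did not overlap either, but reads of the shared stretch cannot be assigned to one of the genes. No other of the 24 tested genes within 250 kb of DAXX was called, in either direction, against 0.406% of all tested genes.

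The 8 libraries held between 34270000 and 44410000 reads (rounded). Non-targeting library 2 stood apart: over genes at or above the median level, its median distance from the mean of the other 3 libraries was 0.264 log2 units, against 0.0549 to 0.147 for the other 7 libraries. The median gene SD was 0.141 in DAXX siRNA libraries and 0.216 in non-targeting libraries. Without non-targeting library 2, 22 genes were called higher and 60 lower. The summed level of 18 colon epithelial markers was 4930 to 5390 RPM in DAXX siRNA libraries and 4410 to 5220 RPM in non-targeting libraries, carried by keratin genes KRT8, KRT18 and KRT19, whereas CEACAM5, CEACAM6, TFF3 and CDX1 were at the value entered for 0 reads. Summed fibroblast markers were 12.3 to 19.6 and 11.6 to 21.6 RPM, nearly all COL1A1, blood cell markers 10.9 to 12.7 and 9.44 to 13 RPM, nearly all CD68, and endothelial markers 51 to 66.5 and 51.4 to 78.7 RPM, mostly EGFL7. The blood marker PTPRC and the endothelial markers CDH5 and TEK were at or near 0. Mitochondrially encoded mRNAs summed to 23800 to 26300 RPM with DAXX siRNA and 22800 to 35300 RPM with non-targeting siRNA. In bulk RNA, fewer cells that express a gene and less RNA per cell cannot be told apart. The labels do not say whether the libraries of a group came from separate cultures, so p-values measure only the spread between these libraries.

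Few transcripts besides DAXX were called. Of 17973 genes, 18 were higher (0.1%) and 55 lower (0.306%) at an adjusted p under 0.05 in limma, 73 in all (0.406%). In each of the 73 the libraries of the groups did not overlap, which held for 1105 (6.15%) of all tested genes, 484 of them higher (2.69%) and 621 lower (3.46%). An unadjusted p under 0.05 was found for 2189 genes (12.2%), 1094 higher and 1095 lower. The changes were small: the median log2 difference was 0.50 for the higher and -0.54 for the lower genes, 28 genes (6 higher, 22 lower) differed at least 1.5-fold, and 5, all lower, differed by at least 1 log2 unit. Those 5 were SMIM40, DAXX, PARM1, IGSF3 and MAP3K3. None of the 73 lay in the lowest quartile of mean level, whereas 14, 32 and 27 lay in the other quartiles in rising order. Their median level in non-targeting cells was 39.1 RPM, against 16.5 RPM over all tested genes.

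**Figure D1:**
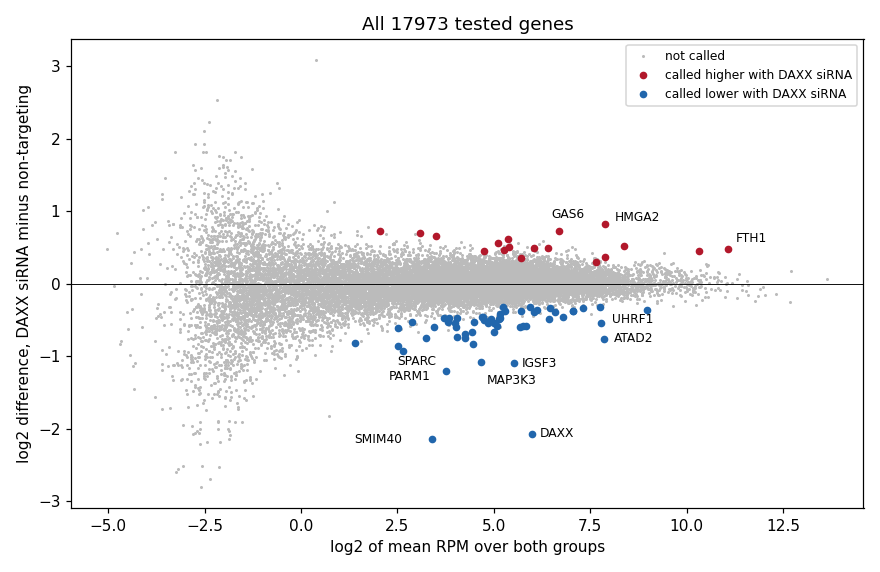
Log2 difference (DAXX siRNA minus non-targeting siRNA) of each of the 17973 tested genes against the log2 of its mean RPM over both groups. Red points are the 18 genes called higher and blue points the 55 called lower with limma, with several named; the widest scatter of grey points lies at the lowest levels, where no gene was called.

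How far single libraries carried these calls was counted by leaving out each in turn. The call was kept whichever library was left out for 37 of the 73 genes, 9 higher and 28 lower, and 36 lost it at least once. Calls lost numbered 28, 23, 35 and 19 without DAXX siRNA libraries 1 to 4, and 28, 16, 16 and 27 without non-targeting libraries 1 to 4. The highest adjusted p then reached by any of the 73 was 0.182. Through all 18 other planned settings, which also vary scaling, filter and model, 28 genes kept the call (6 higher and 22 lower). The plot of genes called in every planned setting shows 27 of them by library, which are SMIM40, DAXX, PARM1, IGSF3, MAP3K3, SPARC, TOR1B, ATAD2, CYBRD1, PIM1, NEU3, GRIN2B, ASIC1, TSPAN18, CACHD1, GOLGA7, ARFGEF2, UHRF1, TNRC6C, IST1, FUBP3 and GLOD4 among the lower genes, and HMGA2, GAS6, SBDS, LGALS3 and BEST1 among the higher genes.

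**Figure D2:**
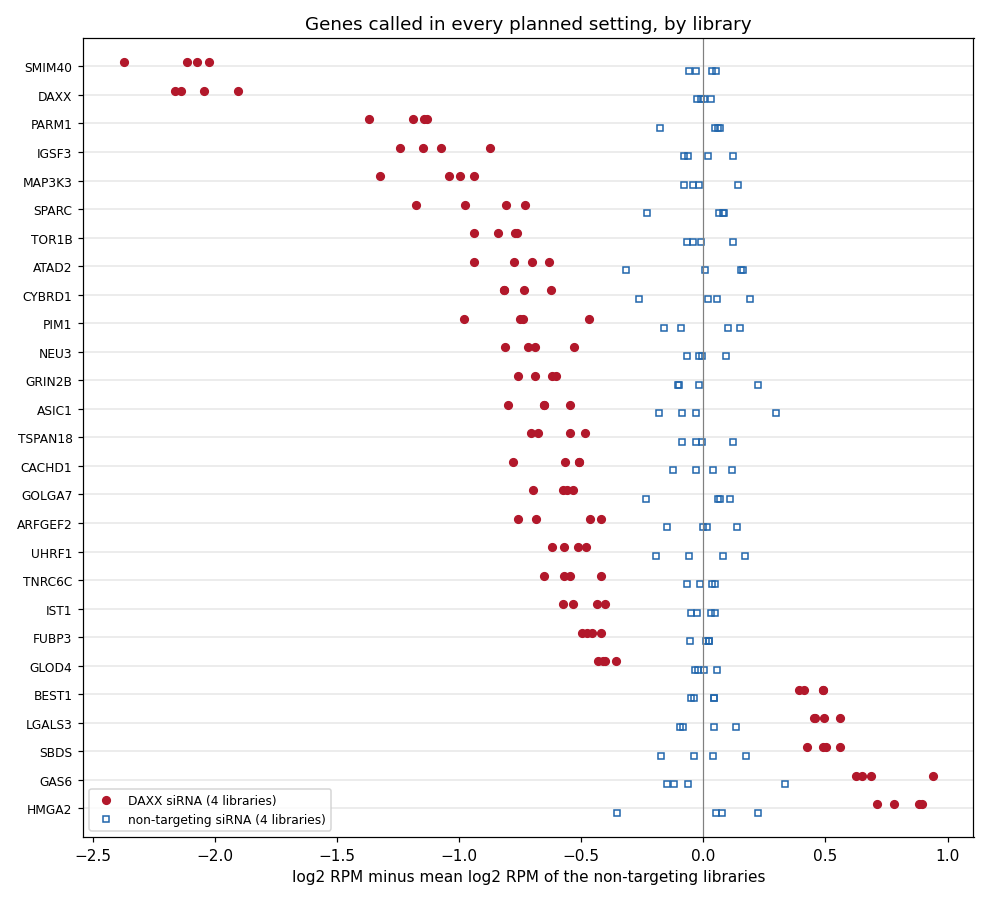
Log2 RPM of each DAXX siRNA library (filled circles) and each non-targeting library (open squares), minus the mean of the 4 non-targeting libraries, for 27 genes called in every planned setting. In each row the 4 circles and the 4 squares do not overlap, from SMIM40 and DAXX, lower by over 2 log2 units, to HMGA2, higher by 0.82 log2 units.

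Among called genes, PARM1 and IGSF3 had the largest falls after SMIM40 and DAXX. PARM1 (chromosome 4, 74933095 to 75050115, plus strand), which encodes a mucin-like membrane glycoprotein, had 8.58, 8.32, 8.65 and 7.34 RPM in DAXX siRNA libraries and 16.8, 19.6, 19.9 and 19.8 RPM in non-targeting libraries. Non-targeting library 1 lay below the other 3, and all 4 were far above every DAXX siRNA library. The log2 difference was -1.21 (SE 0.0934, limma adjusted p = 4.56e-07). IGSF3 (chromosome 1, 116574399 to 116667755, minus strand), an immunoglobulin superfamily membrane protein, had 29.4, 33.8, 26.2 and 27.9 RPM with DAXX siRNA and 58.6, 67.4, 59.3 and 62.8 RPM with non-targeting siRNA. The level was 47.2% of that in non-targeting cells (log2 difference -1.09, SE 0.0858, limma adjusted p = 4.56e-07). IGSF9, another member of that superfamily, known from neuronal dendrites, averaged 7.12 ± 1.56 RPM with DAXX siRNA and 11.9 ± 2.32 RPM with non-targeting siRNA. Its log2 difference was -0.75 with a limma adjusted p of 0.0428, and the call ended without DAXX siRNA libraries 1 or 3 or any 1 non-targeting library (adjusted p up to 0.172). The IGSF9 call also ended with the 8 libraries alone in the fit (limma adjusted p = 0.198).

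MAP3K3 (chromosome 17, 63622415 to 63696303, plus strand) encodes MEKK3, a kinase that activates MAP kinase kinases. It had 16.8, 18, 13.8 and 17.3 RPM in DAXX siRNA libraries and 33.6, 38.1, 32.7 and 34.1 RPM in non-targeting libraries. The groups were far apart (log2 difference -1.08, SE 0.0875, limma adjusted p = 5.56e-07), and the gene overlaps STRADA and LIMD2. Of 36 tested genes of the MAP kinase cascade it was the 1 called lower and none was called higher, and the median log2 difference of the list was 0.01, against -0.01 over all tested genes. The related kinase gene MAP3K2, with 56.5 ± 4.41 RPM in DAXX siRNA and 47.2 ± 9.84 RPM in non-targeting libraries (log2 difference 0.28, limma adjusted p = 0.404), did not pass the test. PIM1, a serine/threonine kinase gene induced by STAT factors, had 12.1, 12.2, 10.3 and 14.7 RPM with DAXX siRNA and 22.6, 21.8, 18.2 and 19.1 RPM with non-targeting siRNA. DAXX siRNA library 4 and non-targeting library 3 came closest without overlapping (log2 difference -0.73, SE 0.11, limma adjusted p = 0.00206). It was the 1 called gene of 22 in the list of PIM kinases and JAK-STAT signalling.

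SPARC, which encodes a collagen-binding matricellular glycoprotein, had 4.16, 4.68, 4.94 and 3.62 RPM in DAXX siRNA libraries and 6.98, 8.67, 8.58 and 8.7 RPM in non-targeting libraries. Non-targeting library 1 was the lowest of its group yet above every DAXX siRNA library. The log2 difference was -0.92 (SE 0.129, limma adjusted p = 0.000996), and CLMAT3 overlaps the gene.

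ATAD2, a bromodomain ATPase gene, had 186, 168, 177 and 150 RPM with DAXX siRNA and 289, 231, 320 and 322 RPM with non-targeting siRNA. Non-targeting library 2 was the lowest of its group, and no library overlapped. Its log2 difference was -0.76 (SE 0.0947, limma adjusted p = 0.000329), the 1 call among 38 bromodomain genes, of which the median was 0.01. TOR1B, encoding an ATPase of the endoplasmic reticulum and nuclear envelope lumen, had 16.4, 15.6, 14.6 and 16.5 RPM with DAXX siRNA and 27.2, 30.4, 27.8 and 26.7 RPM with non-targeting siRNA. Neither group varied by more than a few RPM, and the log2 difference was -0.83 (SE 0.0795, limma adjusted p = 6.26e-06). No other of 20 torsin and nuclear envelope genes was called. CHMP7, which encodes an ESCRT-III protein, fell to 56.4 ± 0.873 RPM with DAXX siRNA, against 74.4 ± 4 RPM in non-targeting cells (limma adjusted p = 0.00601, but 0.0716 with the 8 libraries alone in the fit). IST1, which encodes a regulator of ESCRT proteins and overlaps ATXN1L and ZNF821, fell to 71.9 ± 4.06 RPM with DAXX siRNA, against 101 ± 3.37 RPM in non-targeting cells (limma adjusted p = 0.000713).

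Among 32 tested genes of heterochromatin and DNA methylation, UHRF1 and DNMT3B were called lower and none was called higher. Over all tested genes 0.406% were called. UHRF1 binds hemimethylated DNA and recruits the maintenance methyltransferase at replication, and DNMT3B is a de novo DNA methyltransferase. Their promoters are shown because these are the called genes closest in function to DAXX. RefSeq (GRCh38.p14) gives a window of 300 bases, 250 before and 50 after the annotated start, for both, at chr19:4909251-4909550 (UHRF1, plus strand) and chr20:32779602-32779901 (DNMT3B, plus strand). Capitals mark CCAAT in both, and in UHRF1 also the E2F motif TTTCCCGC, which lies on the opposite strand and so reads GCGGGAAA.
UHRF1: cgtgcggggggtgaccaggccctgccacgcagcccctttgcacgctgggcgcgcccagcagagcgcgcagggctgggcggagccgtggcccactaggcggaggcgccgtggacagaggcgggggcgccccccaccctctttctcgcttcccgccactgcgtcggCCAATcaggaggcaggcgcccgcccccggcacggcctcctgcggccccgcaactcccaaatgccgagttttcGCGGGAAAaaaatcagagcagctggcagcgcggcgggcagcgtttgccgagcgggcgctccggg
DNMT3B: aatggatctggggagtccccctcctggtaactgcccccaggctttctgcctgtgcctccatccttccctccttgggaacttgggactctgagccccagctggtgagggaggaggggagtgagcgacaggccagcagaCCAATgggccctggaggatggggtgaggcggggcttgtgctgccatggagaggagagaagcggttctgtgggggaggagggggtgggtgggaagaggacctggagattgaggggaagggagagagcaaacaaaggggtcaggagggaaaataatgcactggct
Of promoters of 11852 tested genes in this table, searched on both strands, 36.3% held CCAAT and 2.51% held TTTCCCGC. The UHRF1 and DNMT3B windows begin at other transcript starts than those of the deposited table, which lie further upstream.

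UHRF1 had 185, 174, 168 and 181 RPM in DAXX siRNA libraries and 273, 291, 226 and 248 RPM in non-targeting libraries. The lowest non-targeting library, 3, was well above the highest DAXX siRNA library. The log2 difference was -0.55 (SE 0.0908, limma adjusted p = 0.00426). DNMT3B had 24.3, 26.6, 23.5 and 25.8 RPM with DAXX siRNA and 32.4, 38, 32.3 and 38 RPM with non-targeting siRNA, again without overlap. Its log2 difference was -0.49 (SE 0.091, limma adjusted p = 0.0149), and the call ended without DAXX siRNA libraries 1 or 3 or non-targeting library 4 (adjusted p up to 0.0824). The DNMT3B call also ended with the 8 libraries alone in the fit (limma adjusted p = 0.0817), whereas that of UHRF1 held (0.026). Their partners did not pass the test: the maintenance methyltransferase gene DNMT1 averaged 315 ± 15.5 RPM with DAXX siRNA and 350 ± 26.6 RPM with non-targeting siRNA (limma adjusted p = 0.374), and DNMT3A 19.5 ± 1.44 and 17.2 ± 1.08 RPM (0.392). The H3K9 methyltransferase gene SETDB1 averaged 43.8 ± 2.86 and 46.8 ± 2.51 RPM (limma adjusted p = 0.626). The median log2 difference of the list was -0.01, with 15 genes above 0 and 17 below. The highest was MORC3, which did not pass the test (0.38, limma adjusted p = 0.138).

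Partners of DAXX itself were not called, where 0.406% of all tested genes were. Of 20 genes for H3.3 chaperones and their subunits, DAXX was the 1 called. ATRX averaged 77.8 ± 3.23 RPM with DAXX siRNA and 74.8 ± 18 RPM with non-targeting siRNA (log2 difference 0.09, SE 0.143, limma adjusted p = 0.828), and HIRA, the chaperone of H3.3 at active genes, 64.8 ± 4.05 and 67.8 ± 4.13 RPM (-0.06, adjusted p = 0.775). Of the genes for H3.3, H3F3A averaged 189 ± 7.31 and 167 ± 7.44 RPM and H3F3B 916 ± 16.3 and 936 ± 41.1 RPM (limma adjusted p = 0.343 and 0.89). None of 26 genes of PML bodies, SUMO and DAXX partners was called, with log2 differences between -0.36 (SUMO3, limma adjusted p = 0.0654) and 0.24 (SP100, 0.266). PML averaged 27.3 ± 3.86 RPM with DAXX siRNA and 27.3 ± 3.63 RPM with non-targeting siRNA.

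Outside these lists, genes of several other functions fell. NEU3, the plasma membrane sialidase of gangliosides, had 16.2, 13.3, 14.2 and 14.5 RPM with DAXX siRNA and 22.3, 23.1, 23.3 and 24.9 RPM with non-targeting siRNA (log2 difference -0.69, SE 0.0894, limma adjusted p = 0.000493). The groups were separated by over 6 RPM at their nearest libraries. GRIN2B, an NMDA receptor subunit gene, had 23, 25.6, 24.1 and 25.3 RPM with DAXX siRNA and 36.2, 36.3, 38.4 and 45.4 RPM with non-targeting siRNA (-0.67, limma adjusted p = 0.00406). ASIC1, an acid-sensing ion channel gene, averaged 16.5 ± 1.17 and 26.3 ± 4 RPM (-0.66, adjusted p = 0.0023), and CACHD1, which encodes a calcium channel modulator, 12.9 ± 1.11 and 19.4 ± 1.36 RPM (-0.59, adjusted p = 0.00213). ARFGEF2, encoding an exchange factor for ARF GTPases in vesicle traffic, fell to 45.5 ± 5.17 RPM with DAXX siRNA, against 68 ± 5.51 RPM (limma adjusted p = 0.00236). TNRC6C, a partner of Argonaute proteins in microRNA silencing, fell to 23.2 ± 1.55 RPM, against 33.9 ± 1.24 RPM in non-targeting cells (-0.55, limma adjusted p = 0.000941), and was the 1 called of 14 genes of RNA interference. The tetraspanin gene TSPAN18, which overlaps TP53I11, fell by 0.60 log2 units (adjusted p = 0.0035), and GOLGA7, whose product assists a palmitoyltransferase, fell by 0.59 (0.0023).

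LAMP3, a lysosomal membrane glycoprotein gene at a low level, had 2.03, 2.07, 1.82 and 1.72 RPM with DAXX siRNA and 3.12, 3.09, 3.26 and 4.1 RPM with non-targeting siRNA (log2 difference -0.82, limma adjusted p = 0.0023). Its call held whichever library was left out and ended with the 8 libraries alone in the fit (adjusted p = 0.0886). EEPD1, a gene for an endonuclease-like protein of replication fork repair, did likewise (0.149 with the 8 libraries alone), at 6.03 ± 0.313 RPM with DAXX siRNA and 8.76 ± 0.858 RPM with non-targeting siRNA (-0.54, adjusted p = 0.0079). TNFRSF10B, the TRAIL death receptor DR5 gene, which overlaps RHOBTB2, fell to 115 ± 2.85 RPM, against 150 ± 4.69 RPM (-0.38, limma adjusted p = 0.00236, but 0.0565 with the 8 libraries alone). It was the 1 called gene of 32 in the p53 pathway, and none of 36 genes of apoptosis and FAS-JNK signalling was called (0.406% over all tested genes). In that last list RIPK1, a kinase gene of death receptor signalling, averaged 29.8 RPM with DAXX siRNA and 36.5 RPM with non-targeting siRNA (limma adjusted p = 0.0862).

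Further called genes were lower with calls that rested on some of the libraries. They are PRELID2, a relative of mitochondrial lipid transfer proteins (log2 difference -0.86), the tight junction gene CLDN2, which overlaps MORC4 (-0.61), the Fanconi anemia core complex gene FAAP20 (-0.59), DBNDD1 (-0.59), CCDC97, which overlaps TGFB1 (-0.55), SULF2, an endosulfatase of heparan sulfate (-0.53), the activin receptor gene ACVR2B (-0.50), DPM2, a subunit of dolichol phosphate mannose synthase (-0.49), WDFY2 (-0.48) and the serine protease gene PRSS23 (-0.47). Annotated genes overlapped by FAAP20, DBNDD1, SULF2 and PRSS23 are PRKCZ, GAS8, NCOA3 and FZD4 in that order. Limma adjusted p of these 10 genes ran from 0.0149 (ACVR2B) to 0.0463 (DPM2). The calls of FAAP20 and DBNDD1 ended without DAXX siRNA libraries 1 or 3 or non-targeting library 1, and that of PRSS23 without DAXX siRNA libraries 3 or 4 or non-targeting library 4 (adjusted p up to 0.105). That of PRELID2 ended without DAXX siRNA library 3 or non-targeting libraries 1, 3 or 4, and that of ACVR2B without DAXX siRNA libraries 1 or 3 or non-targeting libraries 1 or 4. The calls of WDFY2 and CCDC97 each ended without any of 5 libraries, and those of CLDN2, DPM2 and SULF2 without any of 7 of the 8 (adjusted p up to 0.182). With the 8 libraries alone in the fit, none of these 10 genes kept its call (limma adjusted p 0.069 to 0.283).

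HMGA2 (chromosome 12, 65824131 to 65966295, plus strand) showed the largest rise among called genes. It encodes an AT-hook chromatin protein of embryonic and tumour cells. It had 311, 276, 314 and 290 RPM in DAXX siRNA libraries and 175, 132, 178 and 197 RPM in non-targeting libraries, and non-targeting library 2 was the lowest. The log2 difference was 0.82 (SE 0.105, limma adjusted p = 0.000463) and lay between 0.70 and 0.89 when single libraries were left out. Reads of HMGA2-AS1 and 2 other overlapping genes cannot be told apart from its own. Of 15 genes of the HMGA and oncofetal list it was the 1 called, and HMGA1 averaged 1590 ± 154 RPM with DAXX siRNA and 1350 ± 146 RPM with non-targeting siRNA (0.24, adjusted p = 0.316). IGF2BP3, an oncofetal RNA-binding protein gene, averaged 118 ± 4.99 and 94.8 ± 16.6 RPM (limma adjusted p = 0.199).

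GAS6, the ligand of the receptor kinases TYRO3, AXL and MERTK, had 119, 124, 121 and 148 RPM in DAXX siRNA libraries and 73.7, 97.2, 71 and 69.5 RPM in non-targeting libraries. DAXX siRNA library 4 and non-targeting library 2 were each the highest of their group. The log2 difference was 0.73 (SE 0.111, limma adjusted p = 0.0023), and GAS6-AS1 overlaps the gene. LGALS3, encoding galectin 3, another ligand of MERTK, had 76.4, 74.2, 79.9 and 74.4 RPM with DAXX siRNA and 50.8, 51.2, 59.5 and 55.9 RPM with non-targeting siRNA. Its groups were separated by over 14 RPM (0.49, SE 0.0725, limma adjusted p = 0.00184). The receptors did not pass the test: AXL averaged 129 ± 6.07 and 106 ± 9.5 RPM (adjusted p = 0.162) and MERTK 4.18 ± 1.03 and 5.36 ± 0.534 RPM (0.336). So 2 of 9 listed genes were called higher, against 0.1% of all tested genes. The list median was -0.07 (0.01 without non-targeting library 2). PROS1 and TULP3, also in the list, were not called (0.14 and -0.07, limma adjusted p = 0.678 and 0.728).

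SMPD1, acid sphingomyelinase of lysosomes, rose to 10.5 ± 1.4 RPM with DAXX siRNA, against 6.53 ± 1.13 RPM with non-targeting siRNA (log2 difference 0.69, limma adjusted p = 0.0085). BHLHE41, a repressor of the circadian clock that overlaps SSPN, had 5, 5.26, 5.19 and 5.18 RPM with DAXX siRNA and 3.44, 2.7, 2.75 and 3.71 RPM with non-targeting siRNA (0.72, adjusted p = 0.004). Both kept their calls whichever library was left out but lost them with the 8 libraries alone in the fit (limma adjusted p = 0.137 for SMPD1 and 0.101 for BHLHE41). SBDS, a ribosome maturation factor gene, had 104, 99.3, 100 and 94.8 RPM with DAXX siRNA and 68.8, 62.6, 79.7 and 72.6 RPM with non-targeting siRNA (0.49, adjusted p = 0.00378). It overlaps TYW1 and was the 1 called of 33 ribosome assembly factors. PMEPA1, an inhibitor of TGF-beta signalling, averaged 2.57 ± 0.434 RPM with DAXX siRNA and 4.09 ± 0.125 RPM with non-targeting siRNA and did not pass the test (-0.68, limma adjusted p = 0.0807).

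FTH1, the ferritin heavy chain gene, had 2510, 2450, 2420 and 2610 RPM in DAXX siRNA libraries and 1860, 2000, 1790 and 1590 RPM in non-targeting libraries. Its log2 difference was 0.47 (SE 0.0733, limma adjusted p = 0.0024, but 0.0811 without the filter on low values). BEST1, an anion channel gene that overlaps FTH1 on the opposite strand, was called with it (0.45, adjusted p = 0.00182), and reads of the pair cannot be told apart here. CYBRD1, a ferric reductase of the plasma membrane, fell, with 15.4, 13.5, 14.3 and 13.5 RPM with DAXX siRNA and 24.7, 19.8, 24.1 and 27.1 RPM with non-targeting siRNA (-0.75, SE 0.104, limma adjusted p = 0.000955). So of 28 genes of iron storage, uptake and heme, 1 was called higher and 1 lower. In that list 18 genes lay above 0 and 10 below, with a median of 0.07. The light chain gene FTL averaged 1390 ± 48.9 RPM with DAXX siRNA and 1230 ± 59.5 RPM with non-targeting siRNA (limma adjusted p = 0.312), and the transferrin receptor gene TFRC 549 ± 31.8 and 521 ± 35.2 RPM (0.723). The heme oxygenase gene HMOX1 stood just outside the threshold at 51.8 ± 3.2 and 38.8 ± 3.55 RPM (0.42, limma adjusted p = 0.0524). In the list of the NRF2 pathway, FTH1 was the 1 called of 29, also with a median of 0.07.

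The promoter of CPA4, a secreted carboxypeptidase gene, is shown because it combined TATA box and AP-1 motifs and lies within a wide Kcr region. The RefSeq (GRCh38.p14) window is chr7:130292911-130293210, plus strand. Capitals mark TATAAA on both strands (overlapping, as TTTATAAA), TGACTCA of AP-1 on both strands (TGAGTCA where opposite) and CCAAT on the opposite strand (ATTGG).
CPA4: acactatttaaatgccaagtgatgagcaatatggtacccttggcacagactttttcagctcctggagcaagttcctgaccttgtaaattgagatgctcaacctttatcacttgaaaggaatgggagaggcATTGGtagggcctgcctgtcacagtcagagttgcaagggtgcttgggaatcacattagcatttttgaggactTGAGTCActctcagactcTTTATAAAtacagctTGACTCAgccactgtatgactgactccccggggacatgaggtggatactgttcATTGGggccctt
TATAAA was found in 6.02% and TGACTCA in 3.32% of promoters of tested genes in this table. CPA4 had 43.9, 37.4, 38.5 and 44 RPM in DAXX siRNA libraries and 32.9, 27.3, 24.7 and 26.2 RPM in non-targeting libraries. Non-targeting library 1 came closest to the DAXX siRNA libraries. The log2 difference was 0.57 (SE 0.112, limma adjusted p = 0.0233), and the call ended without DAXX siRNA libraries 1, 3 or 4 or non-targeting libraries 3 or 4 (adjusted p up to 0.105). It also ended with the 8 libraries alone in the fit (limma adjusted p = 0.0716). Of 10 higher and 38 lower called genes with a promoter in the table, TATAAA was found in 2 and 1, TGACTCA in 2 and 3, CCAAT in 3 and 15, and the E-box CACGTG in 2 and 4, the last found in 10% of all promoters. The antioxidant response element TGACNNNGC was found in 1 higher and 8 lower genes, against 14.9% of all promoters. TTTCCCGC was found in UHRF1 alone of the 48, and TTTGGCGC, another E2F motif, in none, against 1.07% of all promoters.

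The remaining called genes that rose did so by less or on fewer libraries. NRP1, a coreceptor of VEGF and semaphorins, had 13, 15.5, 14.8 and 12.4 RPM with DAXX siRNA and 11.6, 8.15, 7.86 and 8.04 RPM with non-targeting siRNA (log2 difference 0.66, limma adjusted p = 0.0224). Non-targeting library 1 lay far above the other 3, and the call ended without DAXX siRNA libraries 2 or 3 or non-targeting libraries 3 or 4 (adjusted p up to 0.104). AP3S1, which encodes a small chain of an adaptor complex for lysosomal sorting and overlaps ATG12, averaged 389 ± 36.3 RPM with DAXX siRNA and 274 ± 45.1 RPM with non-targeting siRNA (0.51, adjusted p = 0.0334), the 1 called of 23 genes of AP-3 and other adaptors. ZHX1, a zinc finger homeobox gene, had a log2 difference of 0.51 (limma adjusted p = 0.0438), FDX1, a mitochondrial ferredoxin, 0.46 (0.0377), and RRAGD, a GTPase of the amino acid sensing pathway, 0.45 (0.0377). F2RL1, the protease-activated receptor PAR2, and VAPA, a tether of the endoplasmic reticulum to other membranes, had 0.36 and 0.29 (limma adjusted p = 0.0377 and 0.0463). The calls of RRAGD ended without any of 5 libraries, of AP3S1 without any of 6, and of ZHX1, FDX1, F2RL1 and VAPA without any of 7 of the 8 (adjusted p up to 0.161). With the 8 libraries alone in the fit, neither NRP1 nor any of these genes kept its call (limma adjusted p 0.143 to 0.283).

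Many lists held no called gene. Over all tested genes only 0.406% were called, so a list without a call does not show that its genes were unaffected. None of 50 genes of DNA replication and S phase, 36 of G2 and mitosis, 78 cytosolic ribosomal proteins, 22 replication-dependent histones, 19 telomere and shelterin genes, 35 interferon-stimulated genes, 19 NF-kB and chemokine genes or 32 genes of crotonylation writers, erasers, readers and metabolism was called. The same held for 19 genes of Wnt targets and intestinal stem cells, 28 of the integrated stress response, 21 of the unfolded protein response, 26 of cholesterol synthesis, 30 of glycolysis and hypoxia, 19 imprinted genes, 7 of metallothioneins and zinc, 13 mitochondrially encoded mRNAs and 160 zinc finger genes on chromosome 19. Nor was any of the 13 colon epithelial, 2 fibroblast, 3 blood cell and 4 endothelial markers that passed the filter called. The list of G2 and mitosis had a median log2 difference of 0.12, which was 0.03 without non-targeting library 2. In it HMMR, a spindle gene, had 152, 143, 165 and 140 RPM with DAXX siRNA and 101, 65.6, 147 and 127 RPM with non-targeting siRNA (limma adjusted p = 0.253), and non-targeting library 3 overlapped the DAXX siRNA libraries. The histone list had a median of 0.22, at low levels. Of its 57 genes 22 passed the filter, and these summed to only 49.6 RPM with DAXX siRNA and 42 RPM with non-targeting siRNA. HIST1H2AC averaged 9.98 RPM with DAXX siRNA and 6.89 RPM with non-targeting siRNA (limma adjusted p = 0.153). The telomerase gene TERT averaged 4.74 RPM with DAXX siRNA and 7.22 RPM with non-targeting siRNA (-0.63, limma adjusted p = 0.207). Of crotonylation genes, the deacylase SIRT2 averaged 17 ± 1.71 and 12.9 ± 0.882 RPM (adjusted p = 0.086) and the acetyltransferase KAT2B 7.47 ± 0.795 and 5.21 ± 0.864 RPM (0.167).

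**Figure D3:**
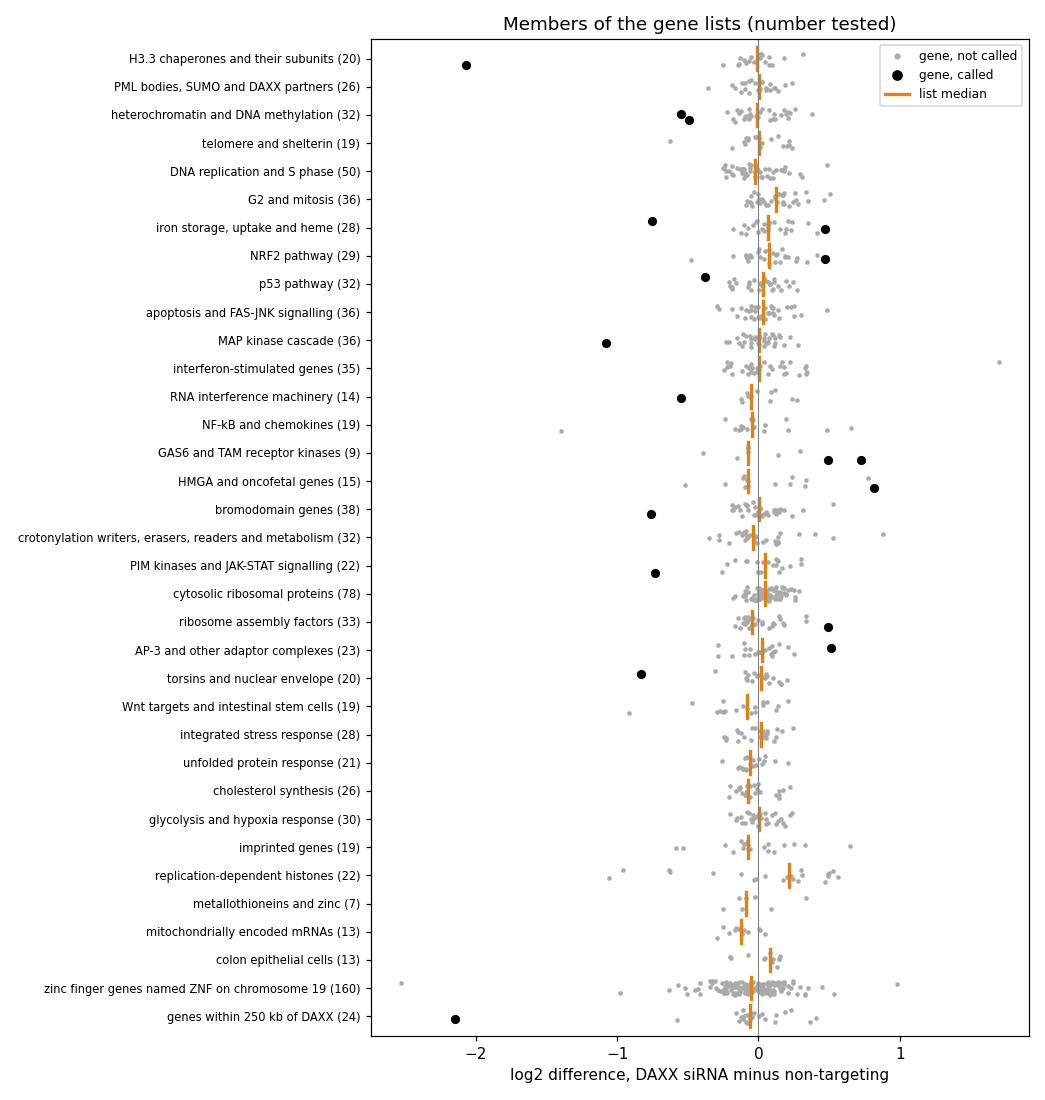
Log2 difference (DAXX siRNA minus non-targeting siRNA) of each tested member of gene lists, with the number tested in brackets; marker lists of fibroblasts, blood cells and endothelium, with 2, 3 and 4 tested genes, are among those not drawn. Black points are called genes, grey points are not, and the orange bar is the list median; the bars drawn lie between -0.12 (mitochondrially encoded mRNAs) and 0.22 (replication-dependent histones), and no list drawn has more than 2 black points.

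Called genes lay on many chromosomes. The highest shares, picked after the values were seen, were on chromosomes 11 and 8, against 0.406% of all tested genes. Chromosome 11 held 4 higher and 7 lower of 1032 tested genes (1.07%), and chromosome 8 held 1 higher and 5 lower of 634 (0.946%). Chromosomes 15, 21 and 22 held no called gene among 628, 183 and 473 tested. Whether calls gather on any chromosome was not tested. The pair BEST1 and FTH1 on chromosome 11 shares reads. The median span of the gene was 29.1 kb for higher and 41.6 kb for lower genes, against 25.7 kb over all tested genes.

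The same siRNAs were compared in libraries that also received crotonate and share none with the comparison above, although all 16 enter the estimate of spread. In them 70 genes were called higher (0.389%) and 120 lower (0.668%), 190 in all (1.06%). All 73 genes had the same sign there, 13 of the 18 higher and 49 of the 55 lower genes were called, and the libraries did not overlap for 18 and 52 (8.48% of all tested genes in either direction). The medians with crotonate were 0.56 for the higher and -0.55 for the lower genes. No gene had a knockdown effect that differed between the conditions at an adjusted p under 0.05 in limma (433 at an unadjusted p under 0.05; limma-voom 0 and 442), and the lowest adjusted p among the 73 was 0.995.

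Among the 73 genes the widest gap between the conditions was at SPARC, which with crotonate averaged 3.69 ± 0.292 RPM with DAXX siRNA and 11.8 ± 1.62 RPM with non-targeting siRNA. Its log2 difference was -1.67 with crotonate and -0.92 without (difference -0.74, SE 0.182, limma unadjusted p = 0.000621). ATAD2 had -1.20 with crotonate and -0.76 without (difference -0.43, SE 0.134, unadjusted p = 0.00418). CPA4, at 49.6 ± 7.09 RPM with DAXX siRNA and crotonate and 25 ± 3.12 RPM with non-targeting siRNA and crotonate, had 0.99 with crotonate and 0.57 without (difference 0.42, SE 0.158, unadjusted p = 0.0148). METTL15, a methyltransferase gene of mitochondrial ribosomal RNA, had -0.75 with crotonate and -0.41 without (difference -0.33, unadjusted p = 0.0145). LAMP3 went the other way, with -0.38 with crotonate (adjusted p = 0.193) and -0.82 without (difference 0.44, SE 0.179, unadjusted p = 0.0233). CYBRD1 and PRSS23 were the others with an unadjusted p under 0.05.

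**Figure D4:**
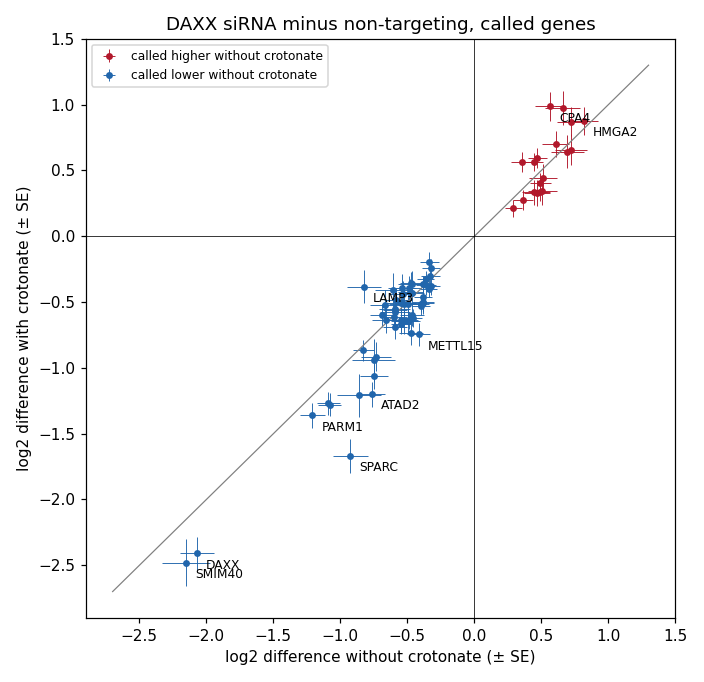
Log2 difference (DAXX siRNA minus non-targeting siRNA) with crotonate on the vertical axis against that without crotonate on the horizontal axis, for the 18 genes called higher (red) and the 55 called lower (blue) without crotonate. Bars are SE from limma and the grey line marks equal values; every gene has the same sign on both axes, with SPARC farthest from the line.

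Lysine crotonylation at these genes was read from the Kcr ChIP libraries without crotonate, of which the choice of genes made no use. Values are log2 reads per region after 1 scaling factor per library, and preparations 1A and 1B of each siRNA, which differed by little more than read sampling (chi-squared over degrees of freedom 1.012 with DAXX siRNA and 1.007 with non-targeting siRNA, against 1.035 to 1.273 in other pairs), count as 1, so n = 3 each. None of 49916 regions was called in limma (0%), and 1186 (2.38%) had an unadjusted p under 0.05. A region lay within 2 kb of the table's start of 14 of the 18 higher and 39 of the 55 lower genes. Where several did, the one with the highest mean signal was used. Values count reads of the whole region, which can reach far beyond the start. The median length was 3225 bases for higher and 3300 for lower genes, and the region at DPM2 spans 48450. The median log2 difference of these regions was 0.09 for the higher and 0.03 for the lower genes, against 0.03 over 12308 tested genes with a region. The difference was above 0 for 11 and below 0 for 3 higher genes, above for 24 and below for 15 lower genes, and above for 7268 and below for 5040 of all these genes.

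At DAXX, the target of the siRNA, the signal was 7.38, 7.48 and 7.34 with DAXX siRNA and 7.68, 7.28 and 7.36 with non-targeting siRNA. The groups overlapped (log2 difference -0.04, SE 0.163). At HMGA2 the signal was 7.79, 8.03 and 7.53 with DAXX siRNA and 7.76, 8.05 and 7.51 with non-targeting siRNA, nearly the same values (0.01, SE 0.181). The region at CPA4 (chromosome 7, 130286251 to 130296450) covers the promoter window printed above, and its signal was 7.66, 7.84 and 7.49 with DAXX siRNA and 7.9, 7.46 and 7.36 with non-targeting siRNA (0.09, SE 0.164). At DNMT3B the difference was 0.22 (SE 0.162) and at UHRF1 0.01 (SE 0.206), both at the start in the deposited table and not at the windows printed. FDX1 was the 1 gene of 53 whose preparations did not overlap, with 5.93, 5.95 and 5.72 under DAXX siRNA and 5.69, 5.53 and 5.17 under non-targeting siRNA (0.41, SE 0.208, limma adjusted p = 1). The others lay between -0.32 and 0.41, and the SE of the 53 genes lay between 0.129 and 0.345. How often preparations do not overlap over all regions was not counted, so the gap at FDX1 is not read as a trait of that gene.

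**Figure D5:**
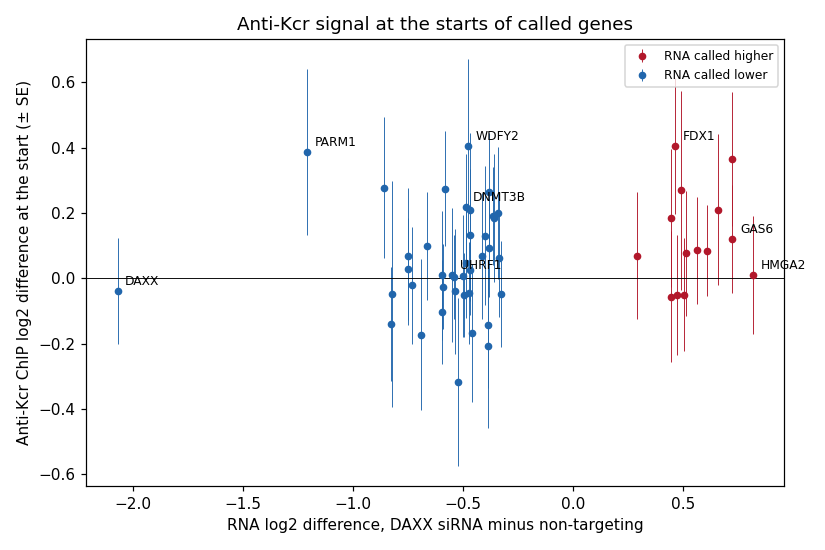
Log2 difference in Kcr ChIP signal against the RNA log2 difference, for the 53 called genes with a region within 2 kb of their start. Differences are DAXX siRNA minus non-targeting siRNA. The Kcr signal is that of the whole region (n = 3 preparations each, bars SE from limma). Of the higher genes (red) 11 lie above 0 on the vertical axis and 3 below, and of the lower genes (blue) 24 above and 15 below; DAXX lies at -0.04 and HMGA2 at 0.01.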

How the data were processed

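RNA of HCT116 cells was sequenced in 16 libraries (4 groups of 4) and anti-Kcr ChIP in 12, with 1 input that was not used here. The submitters' processing notes name Trim Galore 0.6.2, cutadapt 2.3 and HISAT2 2.2.1 for RNA, Trim Galore 0.6.5, Bowtie2 and MACS for ChIP with the same cutadapt, and the build GRCh38 for both. Both tables deposited by the authors hold log2 values: log2 RPM per gene, with 0 reads entered as 0.9 read, and log2 scaled reads per region. Undoing the scaling gave a whole number of reads, within 0.01 read, for 99.7% of RNA and 100% of ChIP values, and for 100% of both with a further tolerance of 2e-05 of the count. The strand setting of counting is not given in the sources used here, so overlapping genes are uncertain. Besides the overlaps named above, TNRC6C overlaps TNRC6C-AS1, ZHX1 overlaps ZHX1-C8orf76, ACVR2B overlaps ACVR2B-AS1 and GLOD4 overlaps MRM3. Genes without an official symbol overlap GOLGA7, GRIN2B, NRP1, DPM2 and WDFY2.

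The deposited log2 values were fitted with limma 3.58.1 (R 4.3.3), with 1 coefficient per group over all 16 RNA libraries, a prior variance that follows the mean level, and p-values adjusted by Benjamini-Hochberg over all tested genes. A call is an adjusted p under 0.05; the script was tested on simulated data. Differences are DAXX siRNA minus non-targeting siRNA, SD is over libraries and SE is the moderated standard error. The 18 settings besides this fit vary samples, scaling, filter, pseudocount (0.5 RPM), prior variance, block and model (limma-voom on recovered reads) and leave out each of the 8 libraries.

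The comparison, the gene lists and the naming rule were chosen with earlier results of these data known. The rule names DAXX, the 18 higher and 30 lower called genes of largest change with an official symbol and no overlap of libraries, and from each list the called members or up to 2 of smallest p. Other genes were chosen after their values were seen. Some called genes, and the lists that hold them, are counted but not reported here. Lists were given by counts and medians, without a test. Promoters are from RefSeq (GRCh38.p14), matched by symbol for 11852 of 17957 tested gene symbols.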

Additional observations from a re-analysis of the deposited data

Results flagged for a closer look

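Among 93 genes named by the rule, 186 sets of 4 libraries were examined for 1 library far from the other 3, by Dixon's test on its gap to the nearest library relative to the range of the group. This was met 9 times, 2 times with DAXX siRNA and 7 times with non-targeting siRNA, where chance gives about 1 in 20 sets. In non-targeting library 1, NRP1 was high at 11.6 RPM and PARM1, SPARC and the interferon-stimulated gene IFI44 were low at 16.8, 6.98 and 0.0292 RPM, the last equal to 1 read. In non-targeting library 2, the claudin gene CLDN7 and the squalene synthase gene FDFT1 were high at 107 and 201 RPM and GOLGA7 low at 34.2 RPM. With DAXX siRNA, the mitochondrial gene MT-CO1 was high in library 2 at 6420 RPM and the endothelial marker VWF low in library 1 at 0.127 RPM. PARM1, SPARC and GOLGA7 kept their calls without these libraries, and so did NRP1.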

How the results depend on the processing

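No called gene turned its direction in any setting, and the interaction and the Kcr ChIP comparison gave 0 calls in each. In the interaction an unadjusted p under 0.05 was met by 317 to 1003 genes, and in the ChIP comparison by 927 to 2040 regions. The 18 higher and 55 lower genes became 7 and 22 with the 8 libraries alone in the fit, and 10 higher (46 lower) without a trend in the prior variance. Leaving out 1 library gave 10 to 22 higher and 29 to 60 lower genes: 11, 10 and 10 higher without DAXX siRNA libraries 1, 2 and 3, and 35, 29, 34 and 35 lower without DAXX siRNA libraries 1 and 3 and non-targeting libraries 1 and 4. The cause was not tested. In the 8 libraries without crotonate, equal replicate numbers did not deviate together (r = 0.0404, 0.0827, 0.0906 and -0.149), so they were not taken as pairs. The crotonate libraries were not part of that check. With the replicate block over all 16 libraries 39 were higher and 78 lower, including all 73. An unadjusted p under 0.05 in limma was then met by 2699 genes, against 2189 without the block. With the block in the 8 libraries alone, added after the data were seen, 2 were higher and 14 lower. Over called genes and settings, 1039 of the results kept the call and 348 lost it. Of list medians, 18 moved by more than the spread in some setting, so small list medians depend on the setting. The spread is the SD of the list's medians in the 4 DAXX siRNA libraries. Levels near 0.25 RPM rest on few reads per library, and no gene of the lowest quartile of level was called.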
